A study of Mus musculus with 5 samples.

Results

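The genes described are 34 genes of the muscle basal lamina and of the extracellular matrix around muscle progenitors, in RNA-sequencing libraries of mouse fetal muscle progenitors with floxed Notch2 or Notch1 alleles and of WT progenitors. They were chosen by symbol, from collagens IV, V, VI, XII, XV and XVIII, laminins, nidogens, perlecan and further matrix glycoproteins and proteoglycans, by a rule that uses no measured value. All 34 were among the 25873 named genes of the deposited table. Of them, 33 reached a mean of at least 1 RPKM over the 5 libraries and entered the test with 11543 genes in all; Col4a5 did not. RPKM is the number of reads of a gene scaled by its length and by the reads of its library.

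Every library came from limb muscle of C57BL/6J fetuses on embryonic day E16.5, and tdTomato-positive, lineage-negative cells were sorted by FACS. The Notch2 cKO group held 2 libraries (Pax7-CreER; Notch2f/f; Rosa-tdTomato), named Em3 and Em4 by their columns. The Notch1 cKO group held 1 library (Pax7-CreER; Notch1f/f; Rosa-tdTomato), named Em8. The WT group held 2 libraries (Pax7-CreER; Rosa-tdTomato), named Em2 and Em4, so the WT fetuses carried the recombinase and the reporter but no floxed Notch allele. Tamoxifen, which switches the recombinase on, was given orally to all mothers at 240 mg/kg on 2 days, beginning on E12.5. The recombinase acts in cells that make Pax7 while tamoxifen is present, so fibroblasts or vessels that never made Pax7 keep their Notch genes and are not the target of the sort. Markers of such neighbours were still detected in the libraries, as given below, and their part in the matrix values was not tested. The number of fetuses behind a library was not given in the sources used here. Nothing states that the 2 libraries of a group came from separate litters, so the spread between these libraries may be technical. The SEs, intervals and p-values below rest mostly on a spread pooled over genes of similar level. A gene's own spread between libraries counts little in them. Where a pair of values is given below, Em3 precedes Em4 for Notch2 cKO and Em2 precedes Em4 for WT.

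The basal lamina is the thin sheet of matrix that wraps each muscle fibre and, once formed, holds the muscle stem cell between itself and the fibre. Laminin trimers, each of an alpha, a beta and a gamma chain, assemble at the cell surface through integrins and dystroglycan; a network of collagen IV lies over them, and nidogens and perlecan join both networks. Outside it, collagen VI, fibronectin, the microfibril proteins and the proteoglycans form the interstitial matrix. Progenitors make part of this matrix themselves, and in mouse muscle stem cells several collagen V and VI genes have been described as Notch targets.

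Col4a1 and Col4a2, which code for the chains of the major collagen IV trimer, lie head to head and share a start region, so its sequence is shown first. Their RefSeq starts (GRCm38.p6) are at 11312826 on the minus strand and 11312805 on the plus strand of chromosome 8, and the 22 bases between and including them follow, read on the plus strand. Capitals mark a GC box (GGGCGG).
Col4a1-Col4a2 shared start (chr8:11312805-11312826, plus strand): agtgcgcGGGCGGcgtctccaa
Col6a1 and Col6a2 code for chains of one trimer too and both lie on chromosome 10, but each has a start of its own. Of all members, Col15a1 had the difference of smallest p, and Lamb1 was the most abundant laminin chain. For these 4 genes the upstream bases outside the annotated exons (GENCODE M21), which come to 126, 250, 250 and 191 bases, are given 5′ to 3′ on the strand of the gene, from RefSeq on GRCm38.p6.
Col6a1 (chr10:76726169-76726294, minus strand): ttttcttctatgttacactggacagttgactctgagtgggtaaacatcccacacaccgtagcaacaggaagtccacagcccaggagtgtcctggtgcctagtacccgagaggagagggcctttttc
Col6a2 (chr10:76623631-76623880, minus strand): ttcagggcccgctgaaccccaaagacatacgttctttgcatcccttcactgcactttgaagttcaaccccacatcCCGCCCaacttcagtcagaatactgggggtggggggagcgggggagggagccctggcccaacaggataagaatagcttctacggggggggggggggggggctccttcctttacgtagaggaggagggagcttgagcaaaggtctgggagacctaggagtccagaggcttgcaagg
Col15a1 (chr4:47207762-47208011, plus strand): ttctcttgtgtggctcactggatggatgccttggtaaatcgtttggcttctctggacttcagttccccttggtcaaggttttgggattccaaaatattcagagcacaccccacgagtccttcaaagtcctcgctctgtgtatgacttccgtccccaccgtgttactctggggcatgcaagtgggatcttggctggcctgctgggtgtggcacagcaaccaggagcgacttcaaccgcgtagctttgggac
Lamb1 (chr12:31265043-31265233, plus strand): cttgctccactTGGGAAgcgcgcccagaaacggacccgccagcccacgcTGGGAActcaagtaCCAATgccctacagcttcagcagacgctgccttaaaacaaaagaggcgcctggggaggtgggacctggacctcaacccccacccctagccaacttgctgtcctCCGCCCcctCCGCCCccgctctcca
Capitals mark matches, on either strand, to a GC box (GGGCGG, or CCGCCC on the other strand), a CCAAT box (CCAAT) and the core of the motif of RBPJ, the DNA-binding partner of Notch (TGGGAA). The E-box of myogenic factors (CAGCTG) and the TATA box (TATAAA) were searched as well. No match overlaps another in the sequences shown. The Lamb1 stretch held 2 GC boxes, 1 CCAAT box and 2 RBPJ cores, the Col6a2 stretch held 1 GC box, and none of these letters was in the Col6a1 or Col15a1 stretch.

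RefSeq's promoter table gave 34 starts for 26 of the matrix genes. In the 250 bases before the start, the RBPJ core was in 14 of these 34 entries (41.2%), from 12 genes: Col18a1, Col4a5, Efemp2, Fbln1, Fbln5, Fbn1, Hspg2, Lama2, Lamb1, Nid1, Tnc and Vcan. It was in 21.6% of all 32817 entries and in 19.9% of the 11314 entries of genes that were tested. The GC box was in 22 matrix gene entries (64.7%), against 32.7% of all entries and 59.1% of those of tested genes. A CCAAT box was in 9 entries (26.5%, against 33.8% of all and 36.1% of those of tested genes), an E-box in 4 (11.8%, against 13.0% and 12.1%) and a TATA box in 3 (8.82%, against 12.4% and 6.55%). Entries of 1 gene can overlap, and a match to these letters is no evidence of binding.

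The read totals implied by the RPKM values lay between 20740258 and 28827897. The targeted gene Notch1 stood at 11.8 and 8.39 RPKM in Notch2 cKO, 2.33 RPKM in Notch1 cKO, and 7.26 and 13.5 RPKM in WT. Notch2 stood at 3.35 and 2.03 RPKM in Notch2 cKO, 3.90 RPKM in Notch1 cKO, and 2.40 and 4.17 RPKM in WT. The Notch1 cKO library was the lowest in Notch1, whereas the Notch2 values of the Notch2 cKO and WT libraries overlapped, so the Notch2 level does not check that label. All 12 muscle lineage genes had reads in every library. So had all 16 interstitial fibroblast and all 14 tendon and cartilage markers, so detection alone does not check the labelled cell type. By sums over a list, the muscle lineage genes stood at 1855 to 2906 RPKM, the fibroblast markers at 181 to 455 RPKM and the erythroid markers at 450 to 1749 RPKM. Myog, the factor of differentiating myoblasts, led the muscle lineage genes with 944 to 1737 RPKM, and Pax7, the progenitor factor, ranged from 4.15 to 13.4 RPKM. Markers of other cells were also detected, and their levels are given beside the results below.

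Levels of the matrix genes spanned a wide range in these cells, and no member passed the test in any comparison. The test was limma on log2(RPKM + 1) over all 5 libraries, with p-values adjusted by Benjamini-Hochberg over all 11543 genes and a threshold of 0.05. In Notch2 cKO against WT, 0 of 33 members were called higher, where 0.355% of all genes were, and 0 were called lower, where 0.182% were. In Notch1 cKO against WT, 0 were called in either direction, where 0.0433% of all genes were called higher and 0.026% lower. In Notch2 cKO against Notch1 cKO, 0 were called, against 0.277% of all genes higher and 0.208% lower. Counts of 0 are near the background in each comparison. When limma voom was run on recovered whole reads, 0 members were called as well. At an unadjusted p under 0.05, 1 member was higher in Notch2 cKO than in WT (Col6a1; background 5.25% of all genes) and 0 were lower (2.38%). In Notch1 cKO, 8 members stood higher than in WT at that level (Col5a3, Col15a1, Col5a1, Col6a3, Col6a2, Nid1, Col5a2 and Col4a2; background 1.35%) and 0 lower (0.494%). In Notch2 cKO against Notch1 cKO, 4 stood lower (Col15a1, Col5a1, Fbn2 and Col4a2; background 2.82%) and 0 higher (5.85%). The voom counts at the same level were 3 higher in Notch2 cKO than in WT, 8 higher in Notch1 cKO than in WT, and 3 lower in Notch2 cKO than in Notch1 cKO. These are bulk libraries, in which fewer cells of a type and less RNA per cell cannot be told apart.

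**Figure D1:**
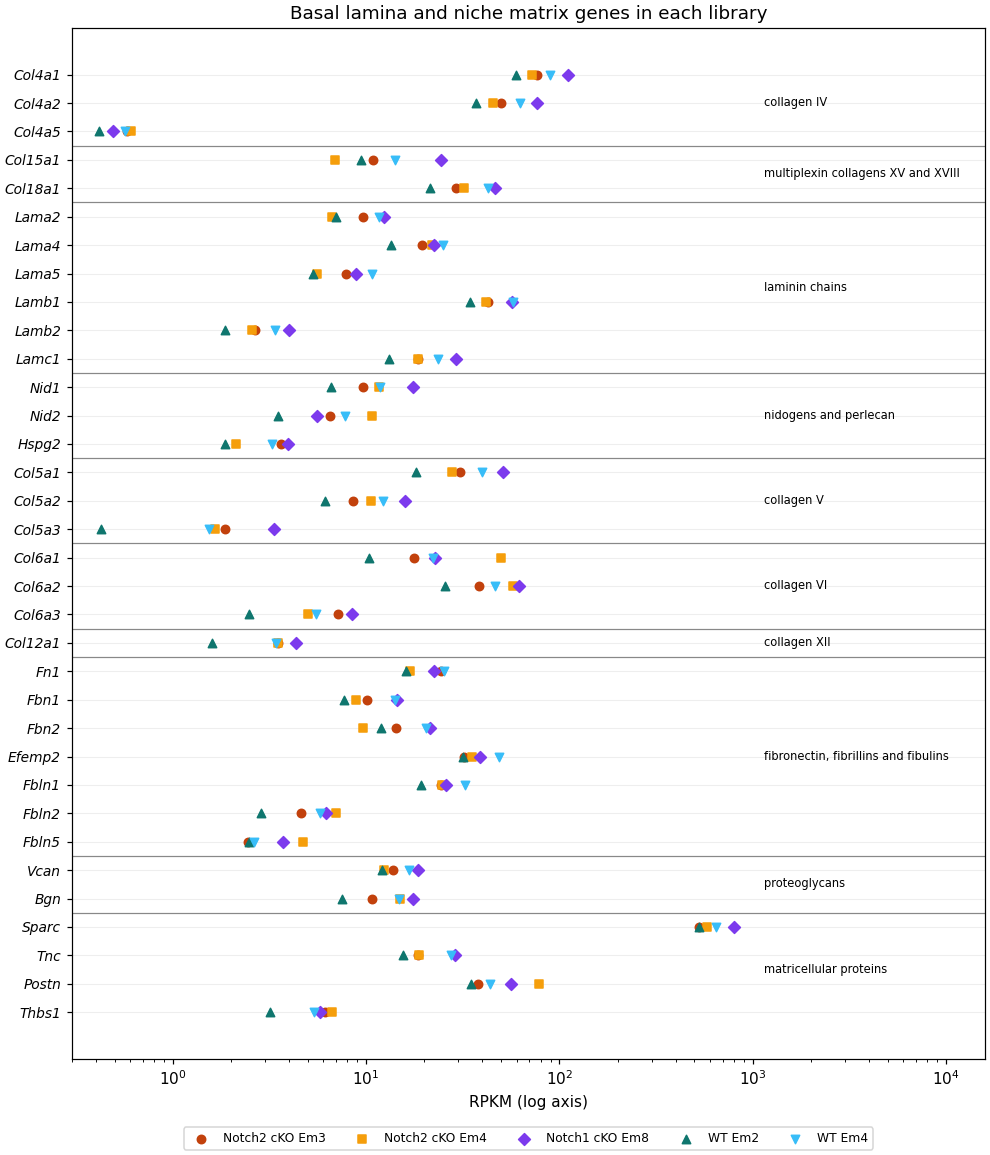
Each marker is the RPKM of a matrix gene in 1 of the 5 libraries, on a log axis, with genes grouped by role. Levels run from under 1 RPKM for Col4a5 to 801 RPKM for Sparc, and the WT Em2 marker is the leftmost in most rows.

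Collagen IV is the network-forming collagen of basement membranes. Col4a1 (ENSMUSG00000031502.11, chr8:11198423-11312826, minus strand) stood at 76.4 and 71.8 RPKM in Notch2 cKO, 110.2 RPKM in Notch1 cKO, and 59.5 and 89.0 RPKM in WT. Col4a2 (ENSMUSG00000031503.13, chr8:11312805-11449287, plus strand) stood at 50.1 and 45.4 RPKM in Notch2 cKO, 76.3 RPKM in Notch1 cKO, and 37.2 and 62.7 RPKM in WT. In both genes the Notch1 cKO library was the highest, and both Notch2 cKO values lay between those of the WT libraries. The log2 difference of Col4a2 in Notch1 cKO against WT was 0.65 (SE 0.33, adjusted p = 1), and in Notch2 cKO against Notch1 cKO it was −0.66 (SE 0.33, adjusted p = 0.560). For Col4a1 the differences were 0.02 in Notch2 cKO against WT and 0.59 in Notch1 cKO against WT, neither past the threshold. Col4a5, the X-linked chain of the other collagen IV trimers, ranged from 0.416 RPKM in WT Em2 to 0.608 RPKM in Notch2 cKO Em4, with 66 to 114 reads a library, and was not tested. Within each library the ratio of Col4a1 to Col4a2 lay between 1.42 and 1.60, the highest being 1.13 times the lowest.

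Collagens XV and XVIII are the multiplexins, collagens with interrupted helices and heparan or chondroitin sulfate chains that sit at the outer face of basement membranes. Col15a1 (ENSMUSG00000028339.17, chr4:47208161-47313167, plus strand) stood at 10.9 and 6.88 RPKM in Notch2 cKO, 24.3 RPKM in Notch1 cKO, and 9.36 and 14.1 RPKM in WT. The Notch1 cKO value was the highest of the 5 libraries, and both Notch2 cKO values lay below it, the lower of them below both WT values. Its log2 difference was −1.38 in Notch2 cKO against Notch1 cKO (SE 0.37, 95% interval −2.12 to −0.64, adjusted p = 0.0616), the smallest adjusted p of any member. Against WT it was 1.01 (SE 0.37, adjusted p = 1) in Notch1 cKO and −0.37 (SE 0.30, adjusted p = 0.813) in Notch2 cKO. With other settings the call in Notch2 cKO against Notch1 cKO was made: the adjusted p was 0.0459 with only genes of a mean of at least 5 RPKM and 0.0314 with median-of-ratios scaling, within a range of 0.0314 to 1 over 15 alternatives. Col18a1, the source of the angiogenesis inhibitor endostatin, stood at 29.2 and 32.0 RPKM in Notch2 cKO, 46.4 RPKM in Notch1 cKO, and 21.5 and 42.6 RPKM in WT. Its Notch2 cKO values lay between the WT values and its Notch1 cKO value above them. The ratio of Col15a1 to Col18a1 was 0.374 and 0.215 in Notch2 cKO, 0.523 in Notch1 cKO, and 0.436 and 0.332 in WT, so both Notch2 cKO ratios were below that of Notch1 cKO while one of them lay between the WT ratios.

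Of the laminin chains, alpha 2 is the one of the adult muscle basal lamina, whose loss causes a congenital muscular dystrophy; alpha 4 and alpha 5 are prominent in fetal muscle and vessels. Lamb1, coding for the beta 1 chain, was the most abundant and stood at 42.6 and 41.8 RPKM in Notch2 cKO, 57.1 RPKM in Notch1 cKO, and 34.6 and 57.5 RPKM in WT. Both Notch2 cKO values lay between the WT values, and the Notch1 cKO value was within 1 RPKM of the higher WT value. Lama2 ranged from 6.62 RPKM in Notch2 cKO Em4 to 12.4 RPKM in Notch1 cKO Em8. Lama4 ranged from 13.4 RPKM in WT Em2 to 24.9 RPKM in WT Em4. Lama5 ranged from 5.32 RPKM in WT Em2 to 10.7 RPKM in WT Em4. For Lama4 and Lama5 every knockout value lay between the WT values, whereas the Notch1 cKO value of Lama2 was above both. Lamb2, the synapse-rich beta 2 chain, ranged from 1.86 RPKM in WT Em2 to 3.98 RPKM in Notch1 cKO Em8. Lamc1, the gamma chain of the common laminins, ranged from 13.1 RPKM in WT Em2 to 29.0 RPKM in Notch1 cKO Em8. For these 2 genes the Notch2 cKO values lay between the WT values and the Notch1 cKO value above them. Per length, the level of Lama4 was 1.80 to 3.30 times that of Lama2, and that of Lamb1 14.3 to 18.5 times that of Lamb2. All 6 differences were above 0 in Notch1 cKO against WT (0.20 to 0.69) and below 0 in Notch2 cKO against Notch1 cKO (−0.62 to −0.11). The differences in Notch2 cKO against WT were above 0 for 3 and below 0 for 3 (−0.18 to 0.17), and none of the 18 differences passed.

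Nidogens and perlecan are the linkers of the laminin and collagen IV networks. Nid1 (ENSMUSG00000005397.8, chr13:13437551-13512269, plus strand) stood at 9.60 and 11.7 RPKM in Notch2 cKO, 17.5 RPKM in Notch1 cKO, and 6.58 and 11.8 RPKM in WT. Nid2 (ENSMUSG00000021806.4, chr14:19751265-19811787, plus strand) stood at 6.52 and 10.7 RPKM in Notch2 cKO, 5.56 RPKM in Notch1 cKO, and 3.51 and 7.82 RPKM in WT. The 2 nidogens were ordered differently: Nid1 was highest in Notch1 cKO, whereas for Nid2 both Notch2 cKO values exceeded the Notch1 cKO value. The log2 difference of Nid1 was 0.91 (SE 0.38, adjusted p = 1) in Notch1 cKO against WT and −0.68 (SE 0.38, adjusted p = 0.635) in Notch2 cKO against Notch1 cKO. That of Nid2 was 0.57 (SE 0.33, adjusted p = 0.709) in Notch2 cKO against WT and 0.51 (SE 0.40, adjusted p = 0.764) in Notch2 cKO against Notch1 cKO. The ratio of Nid2 to Nid1 was 0.679 and 0.913 in Notch2 cKO, 0.317 in Notch1 cKO, and 0.534 and 0.665 in WT, so both Notch2 cKO ratios lay above and the Notch1 cKO ratio below those of WT; this difference of ratios was not tested. Hspg2, coding for perlecan, ranged from 1.85 RPKM in WT Em2 to 3.93 RPKM in Notch1 cKO Em8.

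Collagen V starts and narrows the fibrils of collagen I and lies next to the basal lamina. Col5a1 (ENSMUSG00000026837.15, chr2:27886425-28039514, plus strand) stood at 30.4 and 27.8 RPKM in Notch2 cKO, 51.2 RPKM in Notch1 cKO, and 18.2 and 39.9 RPKM in WT. Col5a2 stood at 8.59 and 10.7 RPKM in Notch2 cKO, 15.9 RPKM in Notch1 cKO, and 6.11 and 12.2 RPKM in WT. Col5a3 (ENSMUSG00000004098.7, chr9:20770050-20815067, minus strand), whose chain joins that of Col5a1 in some trimers, stood at 1.87 and 1.66 RPKM in Notch2 cKO, 3.32 RPKM in Notch1 cKO, and 0.424 and 1.55 RPKM in WT. In each of the 3 genes the Notch1 cKO library was the highest and WT Em2 the lowest. Against WT, the Notch1 cKO differences were 0.90 (SE 0.34, adjusted p = 1) for Col5a1, 0.80 (SE 0.38, adjusted p = 1) for Col5a2 and 1.18 (SE 0.38, adjusted p = 0.613) for Col5a3. The Col5a3 value of WT Em2 rests on 63 reads, the fewest behind any tested member, and is 3.65 times below that of WT Em4. In Notch2 cKO against WT, the differences of Col5a1, Col5a2 and Col5a3 were 0.10, 0.13 and 0.54, and none passed. Both Notch2 cKO values of Col5a3 were above both WT values. Set against Notch1 cKO, Notch2 cKO differed in Col5a1 by −0.80 (SE 0.34, adjusted p = 0.486) and Col5a2 by −0.68 (SE 0.38, adjusted p = 0.639).

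Collagen VI forms beaded filaments between the basal lamina and the interstitial matrix, and mutations in its genes cause muscular dystrophies. Col6a1 (ENSMUSG00000001119.7, chr10:76708792-76726168, minus strand) stood at 17.7 and 49.9 RPKM in Notch2 cKO, 22.7 RPKM in Notch1 cKO, and 10.4 and 22.1 RPKM in WT. A single library, Notch2 cKO Em4, held its high value, which was 2.82 times that of Notch2 cKO Em3, while Notch2 cKO Em3 lay between the WT libraries. The SE and interval for Col6a1 rest mostly on the spread pooled over genes, so they hardly reflect this gap between the Notch2 cKO libraries. The log2 difference of Col6a1 in Notch2 cKO against WT was 0.93 (SE 0.30, 95% interval 0.33 to 1.53, adjusted p = 0.222), the largest of any member in that comparison. It passed without Notch2 cKO Em3 (log2 difference 1.65, adjusted p = 0.00232) and without WT Em4 (1.44, adjusted p = 0.0492), where 1 library stands for its group, and its adjusted p ran from 0.00232 to 1 over 16 alternatives. Col6a2 (ENSMUSG00000020241.13, chr10:76595762-76623630, minus strand) stood at 38.5 and 57.3 RPKM in Notch2 cKO, 61.6 RPKM in Notch1 cKO, and 25.6 and 46.3 RPKM in WT. Col6a3 (ENSMUSG00000048126.16, chr1:90765923-90843971, minus strand) stood at 7.14 and 4.99 RPKM in Notch2 cKO, 8.49 RPKM in Notch1 cKO, and 2.48 and 5.47 RPKM in WT. Both were highest in Notch1 cKO and lowest in WT Em2, and Notch2 cKO Em4 was above Em3 for Col6a2 but below it for Col6a3. In Notch1 cKO against WT, Col6a2 differed by 0.82 (SE 0.33, adjusted p = 1) and Col6a3 by 1.0003 (SE 0.40, adjusted p = 1). The ratio of Col6a1 to Col6a2 was 0.459 and 0.871 in Notch2 cKO, 0.368 in Notch1 cKO, and 0.406 and 0.477 in WT. Over the 5 libraries the ratios of the collagen VI chains varied more than that of collagen IV, untested. The highest value was 2.37 times the lowest for Col6a1 to Col6a2 and 2.13 times for Col6a3 to Col6a2. For Col6a1 to Col6a2 the high value was that of Notch2 cKO Em4, and the other libraries ran from 0.368 to 0.477. The extremes of Col6a3 to Col6a2 were the Notch2 cKO libraries. Recovered lengths were 10841 bases for Col6a3 and 3729 bases for Col6a2, and the part of length was not tested.

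Col12a1 codes for a collagen that coats fibrils of collagen I. Its level was 3.52 and 3.51 RPKM in Notch2 cKO, 4.34 RPKM in Notch1 cKO, and 1.59 and 3.41 RPKM in WT. Both Notch2 cKO values exceeded both WT values, and the log2 difference was 0.42 (SE 0.32, adjusted p = 0.796).

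**Figure D2:**
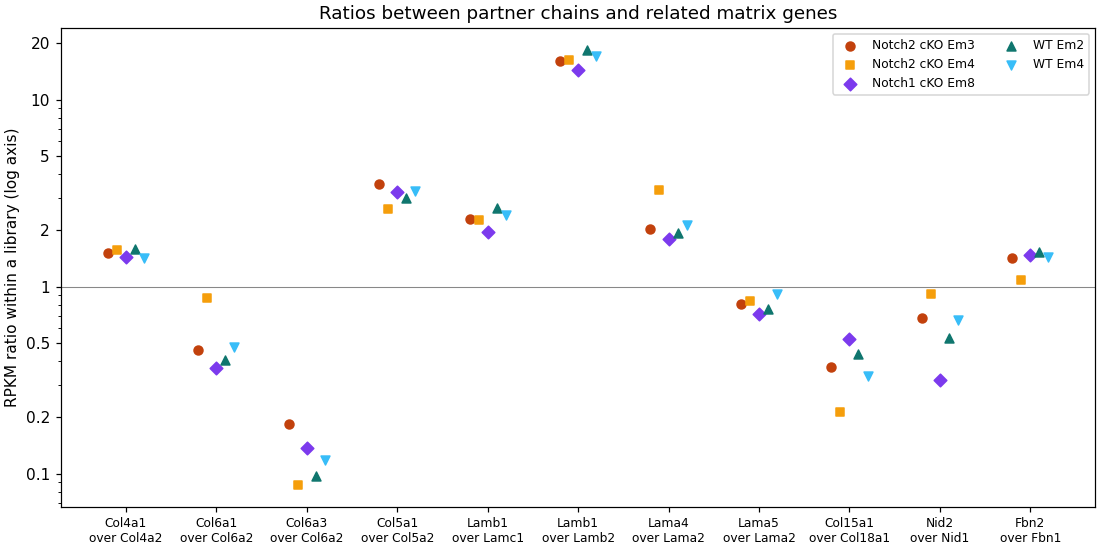
Each marker is the ratio of the RPKM of 2 partner genes in 1 library, on a log axis. The 5 markers of Col4a1 over Col4a2 lie within 1.42 to 1.60, while those of Col6a1 over Col6a2 run from 0.368 in Notch1 cKO Em8 to 0.871 in Notch2 cKO Em4.

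Fibronectin carries integrin-binding sites and is a niche ligand of activated progenitors, and fibrillins and fibulins build the microfibrils and elastic fibres. Efemp2, coding for fibulin 4 and the most abundant of these 7 genes per length, stood at 31.9 and 35.2 RPKM in Notch2 cKO, 38.7 RPKM in Notch1 cKO, and 31.6 and 48.8 RPKM in WT. WT Em4 was its highest library and WT Em2 its lowest, with the knockouts between them. Fbn2, coding for fibrillin 2 of fetal microfibrils, stood at 14.4 and 9.65 RPKM in Notch2 cKO, 21.4 RPKM in Notch1 cKO, and 11.9 and 20.4 RPKM in WT. The lower Notch2 cKO value was below both WT values, and the difference in Notch2 cKO against Notch1 cKO was −0.81 (SE 0.36, adjusted p = 0.519). Fn1, coding for fibronectin, ranged from 16.1 RPKM in WT Em2 to 25.2 RPKM in WT Em4. Fbn1, coding for fibrillin 1, ranged from 7.72 RPKM in WT Em2 to 14.5 RPKM in Notch1 cKO Em8. Both had WT Em2 as their lowest library. Fbln1 ranged from 19.3 RPKM in WT Em2 to 32.5 RPKM in WT Em4. Fbln2 ranged from 2.86 RPKM in WT Em2 to 6.997 RPKM in Notch2 cKO Em4. Fbln5 ranged from 2.44 RPKM in Notch2 cKO Em3 to 4.73 RPKM in Notch2 cKO Em4. Fbln2 and Fbln5 were highest in Notch2 cKO Em4, and no other of the 7 was. Of the 7 differences, 3 were above 0 in Notch2 cKO against WT, 6 in Notch1 cKO against WT and 0 in Notch2 cKO against Notch1 cKO, and none passed.

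The proteoglycans of the list are versican, a large hyaluronan-binding protein of fetal matrix, and biglycan, a small leucine-rich one. Vcan stood at 13.8 and 12.4 RPKM in Notch2 cKO, 18.5 RPKM in Notch1 cKO, and 12.1 and 16.6 RPKM in WT. The Notch1 cKO library was the highest and the Notch2 cKO values lay between those of WT. Bgn ranged from 7.53 RPKM in WT Em2 to 17.4 RPKM in Notch1 cKO Em8.

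Matricellular proteins bind matrix and cells without being structural. Sparc, a collagen-binding glycoprotein, was the most abundant member. Its level was 526 and 578 RPKM in Notch2 cKO, 801 RPKM in Notch1 cKO, and 526 and 649 RPKM in WT. Notch2 cKO Em3 was within 1 RPKM of WT Em2, Notch2 cKO Em4 lay between the WT values, and Notch1 cKO was above them. Postn, coding for periostin, stood at 38.03 and 78.1 RPKM in Notch2 cKO, 56.0 RPKM in Notch1 cKO, and 35.0 and 43.8 RPKM in WT. Its Notch2 cKO Em4 value was 2.05 times that of Em3, so the Notch2 cKO libraries stood further apart than the groups, whose log2 difference was 0.47 (SE 0.27, adjusted p = 0.714). Thbs1, coding for thrombospondin 1, stood at 6.13 and 6.64 RPKM in Notch2 cKO, 5.77 RPKM in Notch1 cKO, and 3.20 and 5.38 RPKM in WT. Both Notch2 cKO values were above both WT values and the Notch1 cKO value, with a difference from WT of 0.51 (SE 0.32, adjusted p = 0.736) and an interval from −0.13 to 1.15. Tnc, coding for tenascin C, ranged from 15.5 RPKM in WT Em2 to 29.0 RPKM in Notch1 cKO Em8.

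Across roles, setting Notch2 cKO beside WT asks what loss of Notch2 in the Pax7 lineage did to matrix transcripts. Among the matrix genes 21 of 33 differences were above 0, where 68.1% of all genes were, and 12 were below 0, where 31.9% were. The median was 0.07 against 0.14 for all genes. The differences lay between −0.38 for Fbn2 and 0.93 for Col6a1. Both Notch2 cKO libraries were above both WT libraries for Col5a3, Col12a1 and Thbs1 (3 of 33, against 28.3% of all genes), and below both for 0 (against 9.44%). Collagen VI had the highest role median (0.56 over 3 genes), and the multiplexins the lowest (−0.18 over 2 genes). The direction of these small values turned on the scaling of the libraries: 14 members were above 0 with median-of-ratios scaling, 28 with equal RPKM sums and 13 with quantile normalization, with medians over all genes of −0.00045, 0.28 and 0.0033. It turned on the WT library as well: 9 of 33 members were above 0 without WT Em2 (median −0.28, against 0.03 for all genes), and 31 of 33 without WT Em4 (median 0.41, against 0.26). Over all genes, 41 were called higher and 21 lower, against 14 and 12 with median-of-ratios scaling, 26 and 2 with equal sums, and 3 and 1 with quantile normalization.

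Notch1 cKO against WT asks the same of Notch1, with 1 knockout library, which the fit assumed to vary like the other groups. No matrix gene passed, and 32 of 33 differences were above 0, where 51.5% of all genes were, and that of Efemp2, at −0.02, was the 1 below (48.5%). The median was 0.50, against 0.01 for all genes. For 26 of 33 members Notch1 cKO Em8 was above both WT libraries (24.3% of all genes), and it was below both for 0 (26.1%). Role medians ran from 0.39 for the laminin chains to 0.90 for collagen V. The 3 scaling alternatives left 32 members above 0. The size depended on the WT library: the median was 0.19 with 26 members above 0 without WT Em2, and 0.83 with 33 above 0 without WT Em4. No member passed with either WT library alone.

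Notch2 cKO against Notch1 cKO sets 2 libraries beside the single Notch1 cKO library, so a difference between the knockouts and a deviation of that library cannot be told apart. It shares its libraries with both comparisons above, so its values are not independent of them. No matrix gene passed, and 30 of 33 differences were below 0 (38.2% of all genes), with Col6a1, Nid2 and Thbs1 above 0 (61.8% of all genes; 9 members were above 0 with equal RPKM sums). The median was −0.44, against 0.12 for all genes. For 26 of 33 members both Notch2 cKO libraries were below Notch1 cKO Em8 (25.2% of all genes), and for Nid2 and Thbs1 both were above it (47.7%). Every role had members that were lower in both libraries. All tested genes of collagens IV and V, of the multiplexins, of the laminin chains and of the proteoglycans were so.

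**Figure D3:**
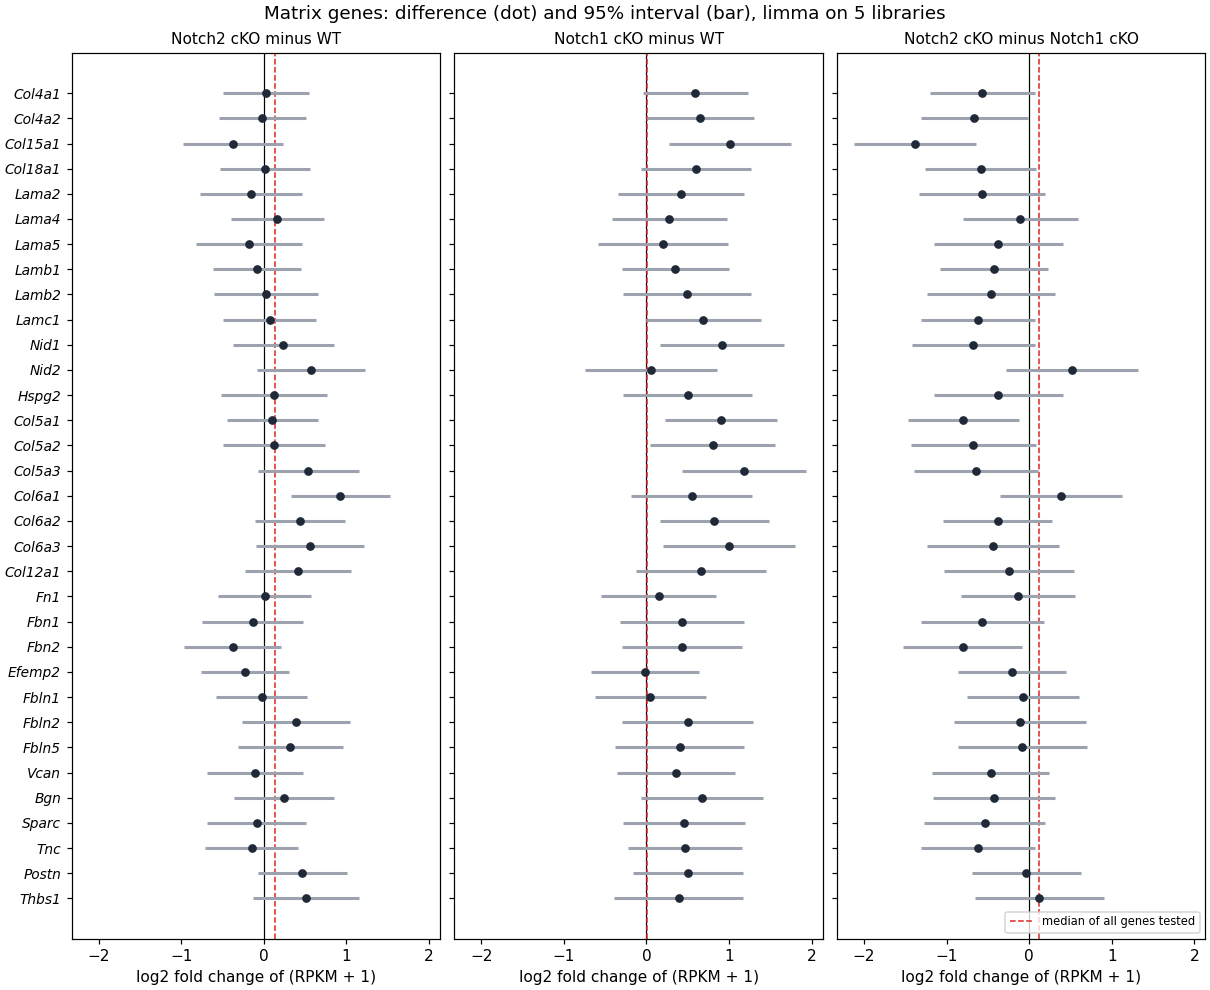
Dots are log2 fold changes of RPKM + 1 for the 33 tested matrix genes in each comparison, with 95% intervals from limma over 5 libraries; the dashed line is the median of all genes tested. In Notch1 cKO minus WT 32 dots lie right of 0, and in Notch2 cKO minus Notch1 cKO 30 lie left of it, but no matrix gene passed the threshold of 0.05.

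The matrix genes also moved together between libraries of 1 group. Relative to the mean of the 5 libraries, their median less that of all genes was −0.15 and −0.14 in Notch2 cKO, 0.43 in Notch1 cKO, and −0.27 and 0.19 in WT. The WT libraries thus stood further apart than the Notch2 cKO group stood from either of them. WT Em2 was the lowest library for 28 of 33 tested members (41.5% of all genes), and Notch1 cKO Em8 was the highest for 21 (11.9% of all genes). Summed over the 34 genes, the level was 1121 and 1249.8 RPKM in Notch2 cKO, 1647 RPKM in Notch1 cKO, and 971 and 1401 RPKM in WT. The matrix genes took 0.492% and 0.514% of the reads in Notch2 cKO, 0.710% in Notch1 cKO, and 0.392% and 0.612% in WT. All 33 tested members were lower in WT Em2 than in WT Em4, as were 69.2% of all genes, with medians of −0.75 and −0.20. Between the Notch2 cKO libraries, 16 of 33 were higher in Em4 than in Em3 (49.0% of all genes).

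Gene length moved with this split. The recovered lengths of the matrix genes had a median of 6046 bases (1842 to 14689), against 2597.5 bases for all genes tested, and 30 of 33 were longer than that median. Across all genes tested, Spearman's rho of the difference of WT Em2 minus WT Em4 with length was −0.475, so long genes read lower in WT Em2. The Notch2 cKO libraries differed by length too. Smoothed over all genes, the deviation of Notch2 cKO Em4 rose to 0.18 at 2899 bases and fell to −0.37 at 16000 bases. That of Notch2 cKO Em3 was 0.22 at 16000 bases. A single rho does not describe such a bend, and the part of length in differences between Em3 and Em4 of long members was not tested. Across genes, rho was 0.245 in Notch2 cKO against WT, 0.0885 in Notch1 cKO against WT and 0.147 in Notch2 cKO against Notch1 cKO; genes share libraries and are not independent. With the length trend of each library removed, the WT Em2 minus WT Em4 median of the matrix genes was −0.38. The median deviations of the matrix genes were then −0.25 and 0.01 in Notch2 cKO, 0.32 in Notch1 cKO, and −0.21 and 0.11 in WT. Notch1 cKO Em8 thus remained the highest library. The WT libraries stood closer together than with the trend left in, and the Notch2 cKO libraries stood further apart. These values use the recovered lengths, an alternative chosen after seeing the data. With that trend removed, 33 of 33 differences were above 0 in Notch1 cKO against WT and 16 in Notch2 cKO against WT; with a trend on annotated length removed, these counts were 32 and 14.

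**Figure D4:**
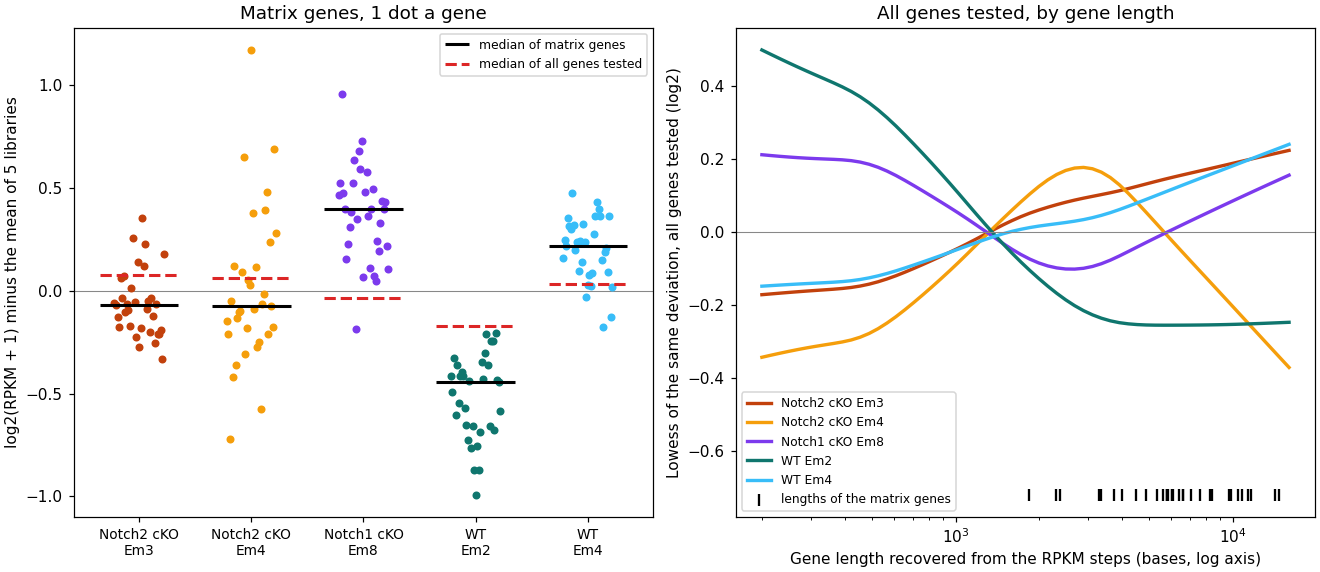
Left, each dot is a matrix gene's log2(RPKM + 1) minus its mean over the 5 libraries, with bars for the median of the matrix genes and of all genes tested. Right, the same deviation over all genes is smoothed against gene length, with ticks at the lengths of the matrix genes. WT Em2 falls to −0.25 at 4203 bases and stays near that value up to 16000 bases. Notch2 cKO Em4 falls from 0.18 at 2899 bases to −0.37 at 16000 bases.

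The column names end in digits whose meaning was not given in the sources used here. Notch2 cKO Em4 and WT Em4 share these digits, as do Notch2 cKO Em3 and Notch1 cKO Em8, and those of WT Em2 are 1 digit shorter and match no other library. Within the first pair, 10 of 33 members were higher in Notch2 cKO Em4 than in WT Em4 (52.8% of all genes), with a median of −0.31 against 0.03 for all genes. Col6a1 differed by 1.14 and Col15a1 by −0.94 in that pair. Within the second pair, 3 of 33 were higher in Notch2 cKO Em3 than in Notch1 cKO Em8 (64.4% of all genes), with a median of −0.45 against 0.13. There Col6a1 differed by −0.34 and Col15a1 by −1.09. Col15a1 was thus lower in Notch2 cKO within both pairs, but most members were lower within each pair too. The first pair sets Notch2 cKO against WT and the second against Notch1 cKO, so they do not repeat 1 comparison. Notch1 cKO and WT share no digits, so the difference between them and these digits cannot be told apart.

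Markers of other cells that make matrix moved with some of these values. Of 16 interstitial fibroblast markers, 12 passed the filter, and the summed level of all 16 was 293 and 455 RPKM in Notch2 cKO, 448 RPKM in Notch1 cKO, and 181 and 308 RPKM in WT. Col3a1, the most abundant, stood at 99.6 and 183 RPKM in Notch2 cKO, 148 RPKM in Notch1 cKO, and 61.7 and 119.6 RPKM in WT, and the defining fibroblast receptor Pdgfra at 1.85 and 1.54 RPKM in Notch2 cKO, 1.84 RPKM in Notch1 cKO, and 0.559 and 1.44 RPKM in WT. WT Em2 was the lowest library of both, as of most matrix genes. Over all genes tested, 68.1% of differences were above 0 in Notch2 cKO against WT and 51.5% in Notch1 cKO against WT. The fibroblast differences in Notch2 cKO against WT were above 0 for 11 of 12 tested, with a median of 0.64 where the matrix genes had 0.07, and none was called. In Notch1 cKO against WT, 12 of 12 were above 0 with a median of 0.94, where the matrix genes had 0.50, and Mfap5, a microfibril protein, was called higher, with a log2 difference of 1.76 (SE 0.37, adjusted p = 0.0169) that passed in 4 of 15 alternatives. Dpt, coding for dermatopontin, was called lower in Notch2 cKO than in Notch1 cKO (−1.41, SE 0.36, adjusted p = 0.0425), in 3 of 15 alternatives. Leaving out any 1 of the Notch2 cKO and WT libraries took the adjusted p of Mfap5 to between 0.0517 and 0.118 and that of Dpt to between 0.0536 and 0.363. The part of these markers in the level of the matrix genes was not tested.

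Tendon and cartilage markers stood out in the library with the high Col6a1 and Postn values. The summed level of the 14 markers was 60.5 and 229.7 RPKM in Notch2 cKO, 80.1 RPKM in Notch1 cKO, and 53.7 and 81.0 RPKM in WT. Col2a1, the collagen of cartilage, stood at 0.648 and 55.4 RPKM in Notch2 cKO, 1.88 RPKM in Notch1 cKO, and 2.202 and 7.62 RPKM in WT, and Matn1, coding for a cartilage matrilin, at 0.120 and 24.2 RPKM in Notch2 cKO, 0.137 RPKM in Notch1 cKO, and 0.921 and 2.38 RPKM in WT. Matn1 was called higher in Notch2 cKO than in Notch1 cKO (2.22, SE 0.54, adjusted p = 0.0251), which did not pass without Notch2 cKO Em4 (adjusted p = 1), without WT Em2 (0.286) or without WT Em4 (0.267), and Notch2 cKO Em3 was below Notch1 cKO. Scx, the highest of the list by its mean over libraries, was even across libraries, at 34.2 and 31.3 RPKM in Notch2 cKO, 37.9 RPKM in Notch1 cKO, and 30.5 and 31.005 RPKM in WT. Whether these markers bear on Col6a1 or Postn was not tested.

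Markers of vessels were few and low. Among 10 endothelial markers, 4 were tested and none was called, and the sums were 23.6 and 28.2 RPKM in Notch2 cKO, 41.1 RPKM in Notch1 cKO, and 21.8 and 28.2 RPKM in WT. Egfl7 made up most of this (17.2 and 19.5 RPKM in Notch2 cKO, 33.9 RPKM in Notch1 cKO, and 15.9 and 18.1 RPKM in WT), while the defining Pecam1 was at most 0.656 RPKM and Cdh5 at most 0.133 RPKM. Among 8 pericyte and smooth muscle markers, 2 were tested and none was called, with sums of 14.0 and 13.5 RPKM in Notch2 cKO, 21.96 RPKM in Notch1 cKO, and 10.9 and 18.6 RPKM in WT. Notch3 led them at 6.48 and 5.97 RPKM in Notch2 cKO, 11.04 RPKM in Notch1 cKO, and 5.74 and 11.05 RPKM in WT, while the defining Pdgfrb and Rgs5 were at most 0.551 and 0.346 RPKM.

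Blood and stress markers also differed between libraries. Haematopoietic markers summed to 18.8 and 47.4 RPKM in Notch2 cKO, 15.5 RPKM in Notch1 cKO, and 15.4 and 23.4 RPKM in WT. Cd68, of macrophages, had the highest mean over the 5 libraries, at 7.27 and 5.13 RPKM in Notch2 cKO, 9.55 RPKM in Notch1 cKO, and 8.69 and 9.64 RPKM in WT. Cpa3 and Tpsb2, proteases of mast cells, were called higher in Notch2 cKO than in WT and than in Notch1 cKO. Tpsb2 stood at 3.24 and 10.49 RPKM in Notch2 cKO, 0.432 RPKM in Notch1 cKO, and 0.452 and 2.57 RPKM in WT. Its differences were 1.61 against WT (SE 0.34, adjusted p = 0.00459) and 2.28 against Notch1 cKO (SE 0.42, adjusted p = 0.000336). Against WT neither passed without Notch2 cKO Em4 or without WT Em2, and Cpa3 not without WT Em4 either. Against Notch1 cKO, Tpsb2 passed in 8 of 14 alternatives and Cpa3 in 11 of 14, and the adjusted p of Tpsb2 was 0.0796 without Notch2 cKO Em4. Ptprc, the gene of the sorted-out CD45, was at most 0.145 RPKM. Erythroid markers summed to 521 and 450.1 RPKM in Notch2 cKO, 1749 RPKM in Notch1 cKO, and 981 and 1224 RPKM in WT. Of the 6 tested, 3 were called lower in Notch2 cKO than in WT and 4 lower than in Notch1 cKO. Their leading gene Hba-a2, whose reads a near-identical copy can share, was called lower in Notch2 cKO than in WT (−1.34, SE 0.28, adjusted p = 0.00459) and than in Notch1 cKO (−1.91, SE 0.35, adjusted p = 0.000336). The difference from WT did not pass without Notch2 cKO Em3 or without Em4, nor that from Notch1 cKO without Em4. Schwann cell markers summed to at most 5.82 RPKM and none was called; by the mean over libraries Erbb3 was highest, at 1.75 and 3.45 RPKM in Notch2 cKO, 0.438 RPKM in Notch1 cKO, and 1.02 and 1.73 RPKM in WT. Dissociation and immediate early genes summed to 3204 and 2113 RPKM in Notch2 cKO, 2415 RPKM in Notch1 cKO, and 1645 and 2131 RPKM in WT. Junb had the highest mean over the 5 libraries, at 673 and 647 RPKM in Notch2 cKO, 685 RPKM in Notch1 cKO, and 483 and 714 RPKM in WT. Fosb, an immediate early factor, was called lower in Notch2 cKO than in Notch1 cKO (−1.55, SE 0.34, adjusted p = 0.00982; adjusted p = 0.0736 without Notch2 cKO Em4). Hspa1a and Hspa1b were called higher in Notch2 cKO than in WT on Notch2 cKO Em3 alone, with 165 RPKM for Hspa1b there against at most 9.23 RPKM elsewhere. Muscle lineage markers summed to 2664 and 2906 RPKM in Notch2 cKO, 1855 RPKM in Notch1 cKO, and 1949 and 2452 RPKM in WT, with none of the 12 called. Notch1 cKO Em8 was thus the highest library for the summed matrix genes and the lowest for this sum, and the part of either in the other was not tested. No marker was at 0 in every library.

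**Figure D5:**
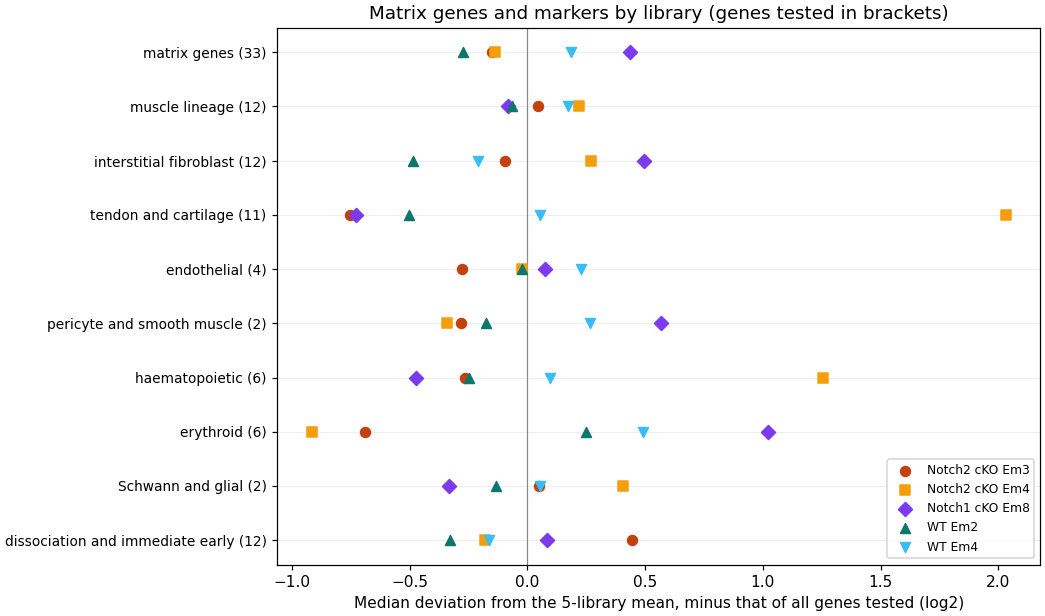
Each marker is the median log2 deviation of a gene list in 1 library from the mean of the 5 libraries, less that of all genes tested, with the number of genes tested in brackets. The matrix genes run from −0.27 in WT Em2 to 0.43 in Notch1 cKO Em8; the fibroblast list shares these ends, and the tendon and cartilage list is highest in Notch2 cKO Em4.

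Other genes of the matrix pathway were read from 4 further lists. Of 26 other basement membrane genes, 9 were tested and 0 were called in any comparison. Their medians were 0.33 in Notch2 cKO against WT, 0.12 in Notch1 cKO against WT and 0.03 in Notch2 cKO against Notch1 cKO, where the matrix genes had 0.50 in Notch1 cKO against WT. Smoc2, a calcium-binding basement membrane protein and the most abundant of them, stood at 13.6 and 19.7 RPKM in Notch2 cKO, 18.9 RPKM in Notch1 cKO, and 4.95 and 10.9 RPKM in WT. Every knockout library was above both WT libraries, but neither difference passed (1.05, SE 0.31, adjusted p = 0.124 in Notch2 cKO; 1.24 (SE 0.38, adjusted p = 0.435) in Notch1 cKO). Of 26 enzymes and chaperones that build collagen, 22 were tested and 0 called, with medians of 0.18, 0.28 and −0.08 in the same order of comparisons. P4hb, a subunit of prolyl 4-hydroxylase and the highest by its mean over libraries, stood at 76.5 and 152 RPKM in Notch2 cKO, 57.0 RPKM in Notch1 cKO, and 62.3 and 85.8 RPKM in WT. Of 28 matrix proteases and inhibitors, 22 were tested and 0 called, with medians of 0.25, 0.18 and 0.12. Timp2, an inhibitor of matrix metalloproteinases and the highest by its mean over libraries, stood at 28.0 and 42.4 RPKM in Notch2 cKO, 38.5 RPKM in Notch1 cKO, and 28.3 and 34.1 RPKM in WT. Of 41 other niche matrix genes, 34 were tested. Their differences were above 0 for 27 in Notch2 cKO against WT (median 0.31), 33 in Notch1 cKO against WT (0.38) and 15 in Notch2 cKO against Notch1 cKO (−0.11). Over all genes tested, 68.1%, 51.5% and 61.8% were above 0 in the same order, with medians of 0.14, 0.01 and 0.12. Ccn2, a matricellular growth factor binding protein, stood at 2.69 and 3.03 RPKM in Notch2 cKO, 1.43 RPKM in Notch1 cKO, and 0.511 and 0.710 RPKM in WT. Every knockout library was above both WT libraries, and Ccn2 was the 1 called, higher in Notch2 cKO than in WT (1.26, SE 0.30, adjusted p = 0.0229). Ccn2 passed in 7 of 15 alternatives. It did not pass without the filter on low values, with quantile normalization, with either length trend removed or by limma voom. Its adjusted p was 0.0563 when Notch2 cKO Em3 was left out, 0.189 when Notch2 cKO Em4 was and 0.603 when WT Em2 was. Its relative Ccn1, the highest of the list by its mean over libraries, stood at 344 and 174 RPKM in Notch2 cKO, 167 RPKM in Notch1 cKO, and 127 and 152 RPKM in WT and did not pass (0.81, SE 0.28, adjusted p = 0.272).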

How the data were processed

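Per the labels' protocols, sorted tdTomato-positive, lineage-negative cells gave RNA for SMART-Seq v4 libraries, sequenced from both ends on an Illumina HiSeq. The authors deposited RPKM values of 27179 rows in 5 libraries; bcl2fastq 2.20.0 and mm10 come from the submitters' processing notes, while aligner, counter and gene models were not given in the sources used here. The 1306 rows without a gene name (2.19% to 3.07% of the summed RPKM) were left out. Every value column was used.

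Whole reads came out for 99.99% of the 18773 named genes above 0 in at least 3 libraries (tolerance 0.05 reads), and recovered gene lengths and library totals with them. Tested members had 63 reads or more in each library and a median of 2227; reads carry no molecular identifiers.

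Tests used limma 3.58.1 under R 4.3.3, with lmFit and a trended eBayes, on log2(RPKM + 1), which understates changes of low genes, with 1 mean per group over 5 libraries and 11543 genes of a mean of at least 1 RPKM. It had 2 residual and 103.8 prior degrees of freedom, so the spread used for each gene came mostly from other genes of similar level. P-values are two-sided, adjusted by Benjamini-Hochberg; an exact permutation of 2 against 2 libraries cannot go below 0.333. Since the values are RPKM and not counts, limma voom on the recovered reads was an alternative only. The fit was tested on simulated data, drawn without the length trends of these libraries, so that test gives no check against such trends. The effects of the 16 alternatives are given in the closing section.

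Values per library are given for members that pass, for the most abundant member of each role and for the 6 of largest difference in each comparison; other members by range. Other lists are named by their called genes (at most 3) and the most abundant one. The rule for the members names symbols and uses no measured value, but it was written with earlier results of these data known, as were the roles, lists and tests. Gene positions come from GENCODE M21 (GRCm38, the same assembly as mm10), in which symbols were found for 24611 of 25873 named genes.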

Additional observations from a re-analysis of the deposited data

How the results depend on the processing

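No matrix gene passed in Notch1 cKO against WT under any alternative run, and 482 of 490 gene values kept their sign, as did 455 of 523 in Notch2 cKO against WT and 477 of 490 in Notch2 cKO against Notch1 cKO. The count of matrix genes called higher in Notch2 cKO than in WT was 0, and between 0 and 1 when a library was left out: Col6a1 passed without Notch2 cKO Em3 and without WT Em4. The count called lower in Notch2 cKO than in Notch1 cKO was 0, and 1 (Col15a1) both with genes of a mean of at least 5 RPKM and with median-of-ratios scaling; the cause was not tested. The median of the matrix genes less that of all genes in Notch2 cKO against WT was −0.07, and ran from −0.31 (without WT Em2) to 0.16 (without WT Em4) when a library was left out. In Notch1 cKO against WT it was 0.49, and ran from 0.28 (without WT Em2) to 0.73 (without WT Em4). In Notch2 cKO against Notch1 cKO it was −0.56, and ran from −0.63 to −0.56. Where 1 library was left in a group, the fit took its spread from the other libraries. These shifts were set against an SD of 0.23 between replicates, from 2 residual degrees of freedom. Nearly all of this SD comes from the WT libraries (−0.27 and 0.19), as the Notch2 cKO libraries were close (−0.15 and −0.14). It is therefore not independent of the shifts from leaving out a WT library. With no filter on low values, 0 genes of any kind were called in the 3 comparisons. Removing a length trend, on annotated length or on recovered length (the recovered-length one chosen after seeing the data), left 17 and 2 genes called higher in Notch2 cKO than in WT and 0 lower. Over all genes, calls in Notch2 cKO against WT were 41 higher and 21 lower, 7 and 6 without WT Em2, and 52 and 235 without WT Em4. By limma voom on recovered reads they were 0 and 0, against 2 higher and 1 lower in Notch1 cKO against WT (5 and 3 by limma on RPKM) and 5 higher and 9 lower in Notch2 cKO against Notch1 cKO (32 and 24 by limma on RPKM). No paired analysis was possible because the columns of the table carry no replicate number; a term for the digits that end the column names would leave no residual degrees of freedom, and libraries that share them are set side by side in the report without a test. The groups held 2, 1 and 2 libraries, and the fewest reads behind a tested matrix gene value were 63.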
